A study of Mus musculus with 4 samples.

Results

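The genes described here are 38 mouse genes of the unfolded protein response and of the ATF4 stress response, out of 30183 gene names on the array. They were taken by gene name from a list, with no threshold on their signal, and all 38 were found. By role they are 4 genes of the stress sensors and the factor they switch on, 8 stress regulators, 14 chaperones and folding factors of the endoplasmic reticulum (ER), 4 genes of ER-associated degradation and 8 amino acid genes known as ATF4 targets. The first comparison within the list sets the ER chaperones beside the ATF4 amino acid genes.

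Proteins that leave the cell are folded in the ER, and unfolded protein there activates the membrane sensors IRE1 (Ern1), PERK (Eif2ak3) and ATF6. IRE1 splices Xbp1 mRNA and, with cleaved ATF6, this raises the genes for chaperones and for degradation of misfolded protein. PERK slows translation by phosphorylating eIF2α, which favours translation of ATF4, a factor that raises amino acid synthesis and transport genes. Amino acid shortage, haem shortage and double-stranded RNA reach ATF4 through other kinases, so that the ATF4 targets and the ER chaperones can move apart. Fibroblast-like cells that secrete collagen carry a high folding load.

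Agilent single-colour (Cy3) arrays measured RNA of 4 samples, each on 1 array. The transfected tissue is ligament-like tissue of C3H background, grown from mesenchymal stem cells given a pCAGGS plasmid (a vector with the ubiquitous CAG promoter) that carries a mouse gene the labels name only A. Its counterpart is the same kind of C3H stem cells, derived from mouse embryos and cultured from a cell bank. The Tg ligament came from C57BL/6J mice transgenic for A from the same plasmid, and the WT ligament from wild type C57BL/6J mice. The labels give no age, sex, ligament site, culture time or number of animals or cultures, name no empty-vector control, and do not identify A, so the transgene itself could not be checked. Strain, origin and culture differ together wherever cells are set against ligament, and their parts cannot be told apart. Transfected tissue and stem cells differ in transfection, in gene A and in growth into tissue, which cannot be told apart either. The name gene A comparisons is used below only as a label for this pair and for Tg against WT ligament.

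The arrays shared 1 slide and 1 scan time, and 49.0% to 56.3% of spots passed the scanner software's mark for signal well above background. Each array was scaled to the 75th percentile of its processed signal, which was 2260 for the transfected tissue, 1169 for stem cells, 303 for Tg ligament and 286 for WT ligament. Both ligament arrays also held markers of other cell types. Of 10 skeletal muscle markers, 10 were well above background on the Tg and 10 on the WT array, against 4 on the transfected tissue and 7 on the stem cell array. Of 9 ligament and tendon markers, 6 were well above background in transfected tissue, 7 in stem cells, 9 in Tg ligament and 8 in WT ligament.

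Levels below are log2 signal minus log2 of the array's 75th percentile, so that 0 is that percentile and 1 unit is 2-fold. Counts of higher and lower genes take differences of 2-fold or more, and smaller differences are given with their size. A single array stands for each group, so there is no replicate check and no test. The only measured error is that between the 10 spots that some probes have on the same array, whose SD was 0.07 for the transfected tissue, 0.18 for stem cells, 0.11 for Tg ligament and 0.10 for WT ligament on the log2 scale. It does not cover the spread between animals or cultures.

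Promoter windows are shown first, because the chaperones and the ATF4 targets differ in the elements they are known for. RefSeq windows of build GRCm38.p6, which reach from 250 bases before to 50 bases after each start, matched 34 of the 38 genes (the others were Atf6, Manf, Hyou1 and Slc7a5). Searched on both strands were the ER stress element ERSE (CCAAT and CCACG with any 9 bases between them), its variant ERSE-II (ATTGG and CCACG with any 1 base between them), the unfolded protein response element UPRE (TGACGTGG) and the ATF4 composite element CARE (TGATGNAA). The windows below hold the matches, in capitals, with up to 25 bases on either side, and run 5′ to 3′ along the gene's own strand. They carry ERSE in Hspa5, Hsp90b1, Calr and Creld2, ERSE-II with CARE in Herpud1, and CARE in Atf3, Chac1, Asns and Slc7a11.
Hspa5 (chr2:34772000-34772068, + strand): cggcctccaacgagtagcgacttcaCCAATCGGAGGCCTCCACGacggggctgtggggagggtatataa
Hsp90b1 (chr10:86705508-86705681, - strand): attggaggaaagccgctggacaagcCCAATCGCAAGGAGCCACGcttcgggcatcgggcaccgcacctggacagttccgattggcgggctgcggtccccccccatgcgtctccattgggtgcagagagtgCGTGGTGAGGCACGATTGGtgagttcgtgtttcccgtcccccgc
Calr (chr8:84847050-84847118, - strand): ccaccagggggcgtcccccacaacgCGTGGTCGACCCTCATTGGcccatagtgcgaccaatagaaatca
Creld2 (chr15:88819495-88819563, + strand): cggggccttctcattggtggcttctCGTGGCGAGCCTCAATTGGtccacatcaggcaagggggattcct
Herpud1 (chr8:94386292-94386412, + strand): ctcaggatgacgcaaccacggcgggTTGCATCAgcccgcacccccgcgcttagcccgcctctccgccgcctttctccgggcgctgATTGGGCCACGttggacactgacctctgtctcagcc
Atf3 (chr1:191183411-191183468, - strand): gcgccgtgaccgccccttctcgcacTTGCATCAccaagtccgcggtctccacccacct
Chac1 (chr2:119351024-119351081, + strand): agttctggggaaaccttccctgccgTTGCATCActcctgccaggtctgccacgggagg
Asns (chr6:7693210-7693257, - strand): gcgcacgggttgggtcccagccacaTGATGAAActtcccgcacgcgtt
Slc7a11 (chr3:50443628-50443704, - strand): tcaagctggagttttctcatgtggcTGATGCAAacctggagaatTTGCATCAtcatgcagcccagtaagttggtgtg

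ERSE was in the windows of 7 of 12 matched chaperones (Hspa5, Hsp90b1, Dnajc3, Pdia6, Calr, Canx and Creld2) and of Syvn1, against 0.137% of all 27025 genes with a window. ERSE-II was in Dnajb11 and Herpud1, against 0.0444% of all these genes. CARE, a shorter motif, was in Atf3, Trib3, Chac1, Herpud1, Asns and Slc7a11, against 4.51% of all these genes, and in none of the 12 chaperones. UPRE was in 0 of the 34 genes, against 0.714% of all genes with a window. A match is a description of letters and does not show that a factor binds there.

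**Figure D1:**
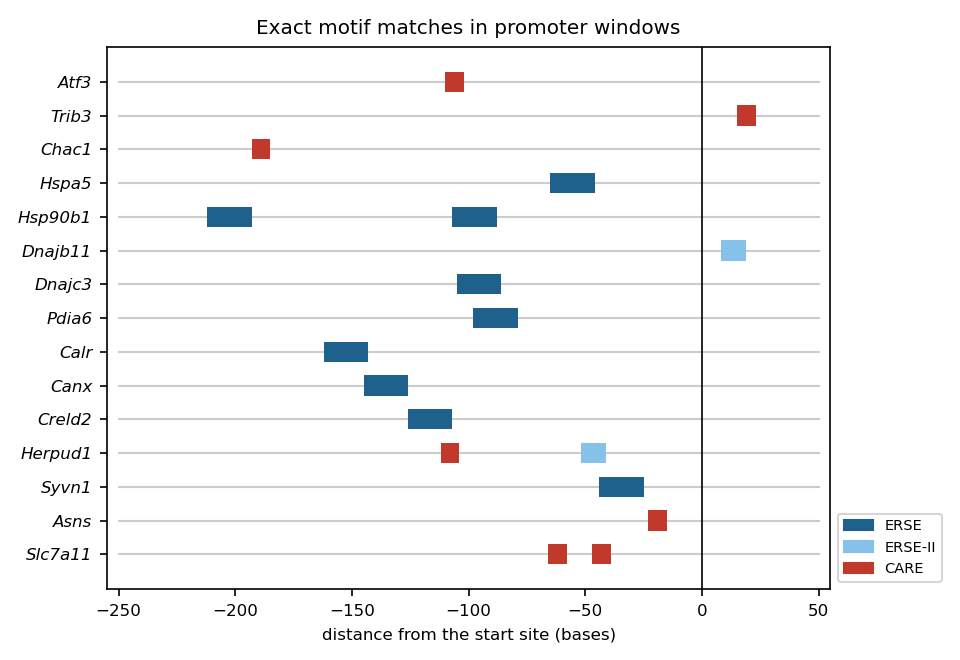
Positions of exact motif matches in the promoter windows of the 15 genes that hold any, in bases from the start site at 0 (horizontal axis). Dark blue is ERSE, light blue ERSE-II and red CARE. ERSE matches lay between -212 and -26 in front of the start, and the matches of Trib3 and Dnajb11 lay behind it.

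Across the 4 arrays, 26 of the 38 genes were highest in the transfected tissue and 24 were lowest in WT ligament. None was highest in WT ligament, and none was lowest in the transfected tissue. For 26 genes both arrays of cell origin, transfected tissue and stem cells, lay above both ligament arrays, and for 2 genes (Ern1 and Herpud1) both ligament arrays lay above both arrays of cell origin. These orders were not counted over all genes, so nothing particular to the 38 genes is read from them. By the probe used for each gene, 35 of the 38 genes were well above background on every array. The exceptions were the probes of Hyou1 in WT ligament, Slc7a5 in both ligaments, and Slc7a11 in stem cells and both ligaments.

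**Figure D2:**
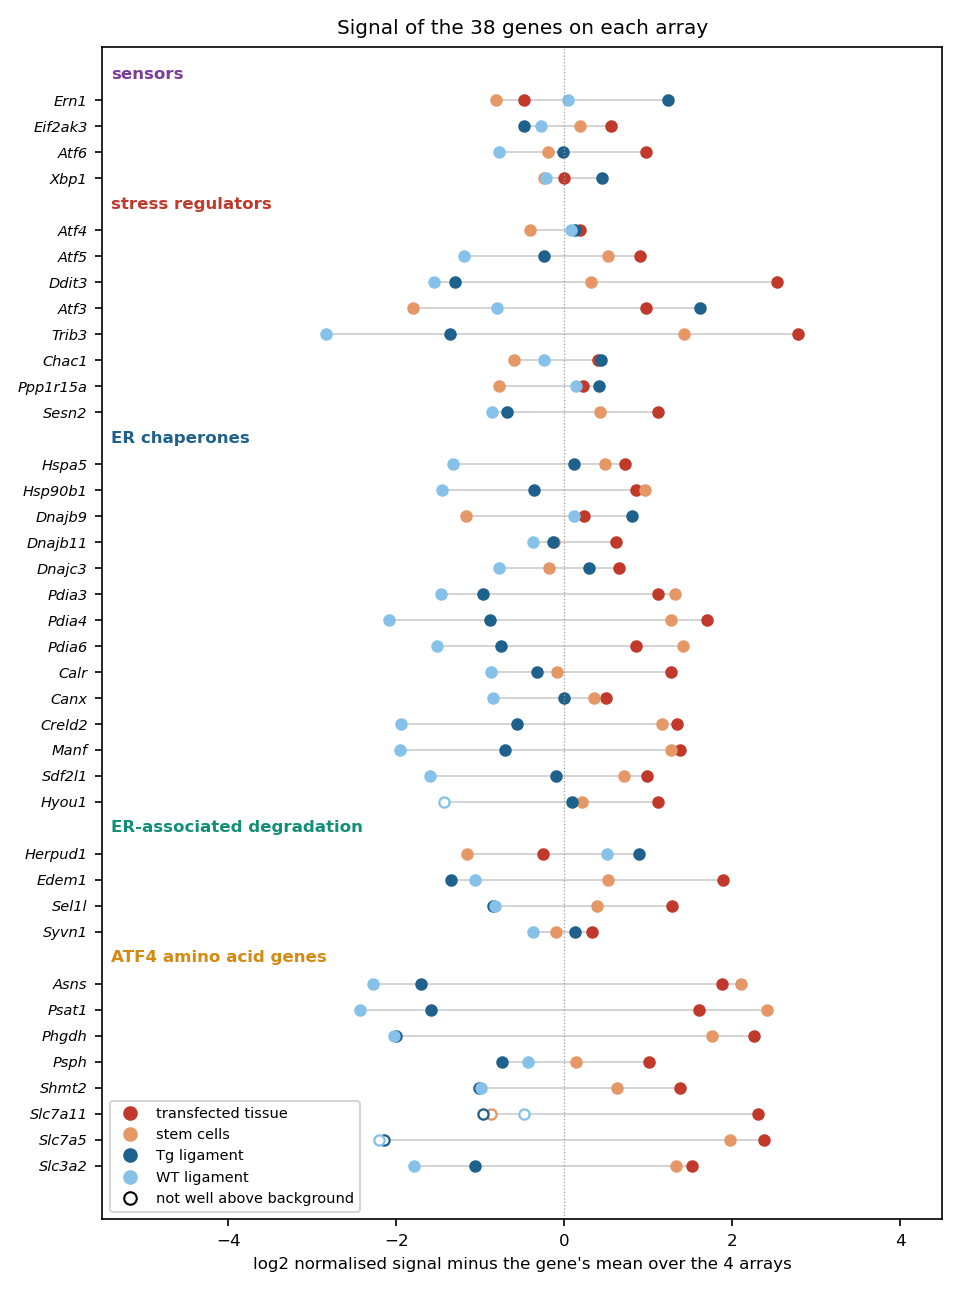
Log2 normalised signal of each of the 38 genes on each array, minus the gene's own mean over the 4 arrays (horizontal axis), with genes grouped by role. Filled points are well above background and open points are not. Red points (transfected tissue) are rightmost for 26 genes and light blue points (WT ligament) leftmost for 24. These orders were not counted over all genes.

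In the transfected tissue against stem cells, 9 of 38 genes were higher at 2-fold and 0 were lower, and 33 had a level above that in stem cells. Of all 17787 genes compared, 11.1% were higher and 13.0% lower. The count of 9 was 17 after quantile normalization, and 14 both with centring on probes detected on all arrays and in the deposited table. The median log2 difference was 0.54 for the 38 genes and -0.07 for all genes. The 9 genes were Ddit3, Atf3, Trib3, Chac1, Atf6, Dnajb9, Calr, Edem1 and Slc7a11, and the median was largest for the stress regulators, at 1.00, with 4 of 8 higher.

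In Tg against WT ligament, 10 of the 36 genes that could be compared were higher at 2-fold and 0 were lower. Of all 16348 genes compared, 6.29% were higher and 7.02% lower. The median was 0.67 for the 36 genes and -0.03 for all genes. Of the 10 genes, 7 were ER chaperones (Hspa5, Hsp90b1, Dnajc3, Pdia4, Creld2, Manf and Sdf2l1), and the others were Atf3, Trib3 and Ern1. None was an ATF4 amino acid gene, but only 6 of these were compared. With 6.29% higher over all genes, nothing is read from that absence.

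In WT ligament against stem cells, 3 of 37 genes were higher and 21 lower. Of all 16523 genes compared, 37.8% were higher and 24.5% lower, and the median was -1.28 for the genes described here and 0.30 for all genes. In transfected tissue against WT ligament, 27 of 38 were higher and 0 lower. Of all 16474 genes compared, 23.2% were higher and 39.5% lower, with medians of 2.08 and -0.41. Every comparison with stem cells uses the same stem cell array, and every comparison with WT ligament the same WT array. Transfected tissue against stem cells and Tg against WT ligament share no array. In bulk RNA such as this, fewer cells of a type and less RNA per cell cannot be told apart.

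**Figure D3:**
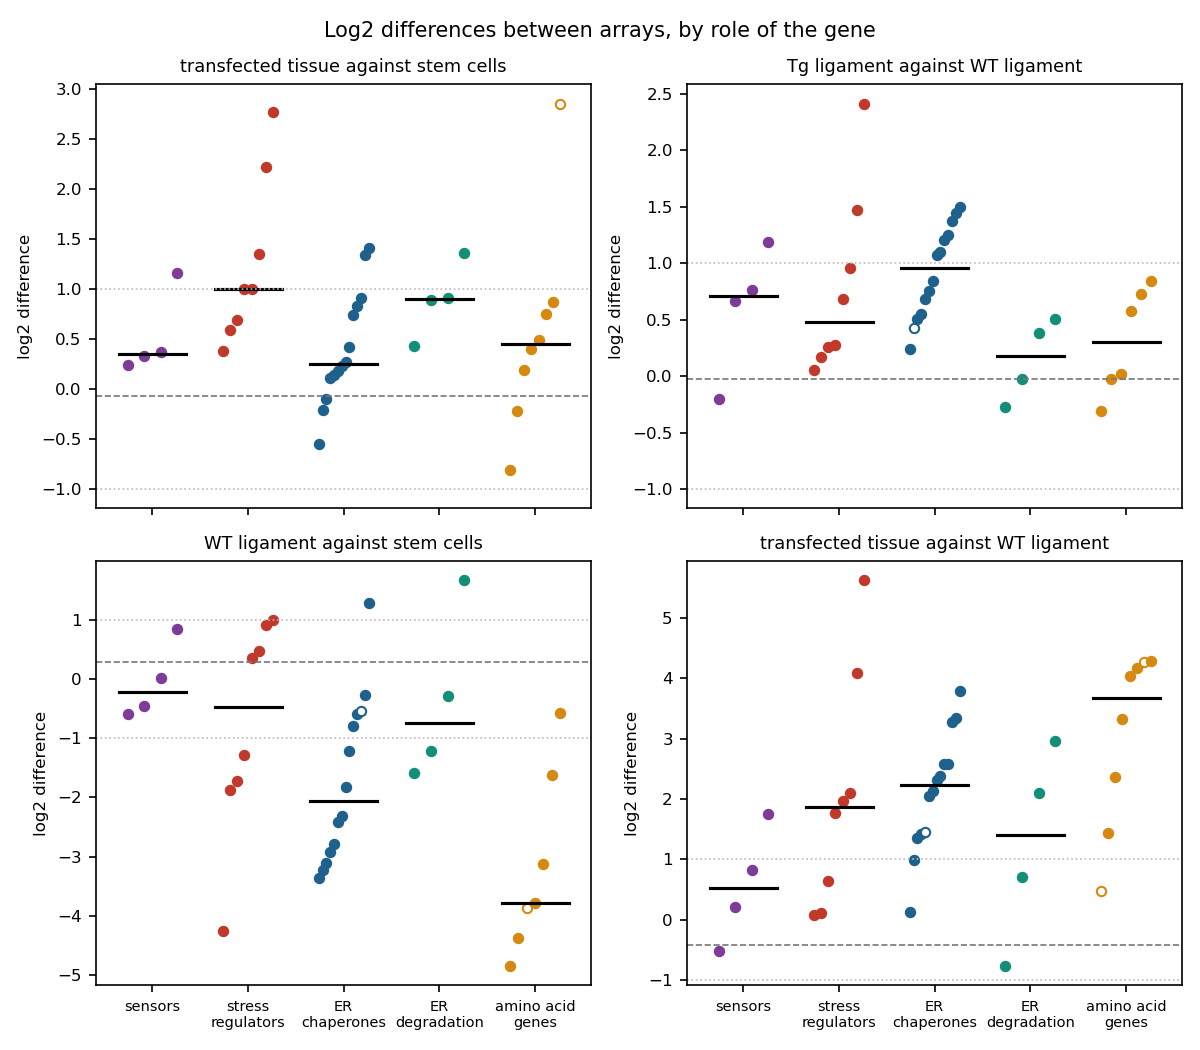
Log2 difference of each gene (vertical axis) by role (horizontal axis), in a panel for each of the 4 comparisons. Open points are bounds (1 of the arrays not well above background), black bars are medians of a role, the dashed line is the median of all genes and dotted lines mark 2-fold. The stress regulators have the highest median in transfected tissue against stem cells (1.00), and the ER chaperones in Tg against WT ligament (0.96).

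By median, the ER chaperones lay above the ATF4 amino acid genes in Tg against WT ligament. Between transfected tissue and stem cells the medians of these sets lay close together. Between Tg and WT ligament the median log2 difference was 0.96 for the 14 chaperones and 0.30 for the 6 amino acid genes compared. At 2-fold 7 and 0 were higher, against 6.29% over all genes, and nothing is read from 0 of 6. The chaperone median was above the amino acid median by 0.66, and by 0.54 to 1.04 under the 8 other ways of processing. Single genes overlapped there, from 0.24 to 1.50 for the chaperones and from -0.31 to 0.85 for the amino acid genes. Between transfected tissue and stem cells the medians were 0.25 for 14 chaperones and 0.45 for 8 amino acid genes, with 2 and 1 higher, a difference between medians of -0.19. This lay between -0.24 and -0.05 under the 8 other ways of processing. Spot noise of a single gene's difference was 0.20 there, which is not the spread of a difference between medians. Single genes ran from -0.55 to 1.41 for the chaperones and from -0.81 to 2.85 (a bound) for the amino acid genes. With such overlap, no reversed order is read from the medians. The 6 amino acid genes compared in ligament are part of the 8 compared in cells.

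Against stem cells, WT ligament had less of both sets. The chaperone median was -2.06 (9 of 14 lower, 1 higher) and the amino acid median was -3.79 (6 of 7 lower). In transfected tissue against WT ligament the medians were 2.23 for the chaperones (12 of 14 higher) and 3.68 for the amino acid genes (7 of 8 higher), and the chaperone median minus the amino acid median was -1.45. With all probes of a gene averaged it was -0.61. The amino acid counts and medians here include Slc7a5 as a bound, at -3.87 and 4.28 in these comparisons. A second Slc7a5 probe, well above background on every array, gave -0.07 and -0.20.

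Within the sensors, Ern1, the kinase and nuclease IRE1, had a level of -2.54 in transfected tissue and -2.88 in stem cells, and of -0.84 in Tg ligament and -2.03 in WT ligament. Tg ligament was highest, 2.28-fold above WT ligament. The log2 difference of 1.19 was 0.68 with normexp background correction and -0.08 with its 4 probes averaged, 3 of which were not well above background in ligament. Atf6, the sensor that is cleaved into a transcription factor, was at -0.62 in transfected tissue, -1.79 in stem cells, -1.61 in Tg ligament and -2.37 in WT ligament. It was 2.24-fold higher in transfected tissue than in stem cells, and 0.76 higher on the log2 scale in Tg than in WT ligament.

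Eif2ak3, the PERK kinase, differed by 0.37 between transfected tissue and stem cells and by -0.21 between Tg and WT ligament. Xbp1, whose mRNA is spliced by IRE1, differed by 0.24 and 0.66 in the same comparisons. Its level lay between 3.99 and 4.68 on all 4 arrays, and splicing cannot be read from this probe signal.

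All 8 stress regulators had a higher level in transfected tissue than in stem cells, and all 8 had a higher level in Tg than in WT ligament, though most differences were under 2-fold. The exception among the other ways of processing was Atf4 in ligament, at -0.46 with its probes averaged. The number past 2-fold in transfected tissue was 4, and 3 to 7 under the other ways of processing. Atf3, a stress-induced transcription repressor (probe at chr1:192994547-192994606 in mm9), was at -0.43 in transfected tissue and -3.20 in stem cells, and at 0.21 in Tg ligament and -2.20 in WT ligament. It was 6.85-fold higher in transfected tissue than in stem cells and 5.32-fold higher in Tg than in WT ligament. Under the 8 other ways of processing the log2 differences were between 2.21 and 2.91 and between 1.50 and 2.83. The low arrays were the stem cells and WT ligament.

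Trib3, a pseudokinase induced by ATF4 and CHOP (probe at chr2:152163161-152163220 in mm9), was at 4.91 in transfected tissue and 3.56 in stem cells, and at 0.77 in Tg ligament and -0.71 in WT ligament. It was 2.56-fold higher in transfected tissue than in stem cells and 2.78-fold higher in Tg than in WT ligament. Atf3 and Trib3 were the only genes of the 38 that were higher at 2-fold in both of these comparisons, 2 of the 17 higher in either, against 116 of 2886 over all genes. Trib3 also stood 49.1-fold higher in transfected tissue than in WT ligament, the largest measured difference of the 38 genes in the 4 comparisons.

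Ddit3, which encodes the pro-apoptotic factor CHOP, was at 2.85 in transfected tissue, 0.63 in stem cells, -0.99 in Tg ligament and -1.24 in WT ligament. It was 4.66-fold higher in transfected tissue than in stem cells, and 0.26 higher on the log2 scale in Tg than in WT ligament, against 0.15 from spot noise alone. The transfected tissue stood above the other 3 arrays, and both ligaments lay close together.

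Chac1, a glutathione-degrading enzyme, differed by 1.00 between transfected tissue and stem cells, just past 2-fold. Ppp1r15a (GADD34, which returns eIF2α to its unphosphorylated form) also differed by 1.00 when rounded but lay just under the threshold. Changing the processing moved Chac1 across it in 2 of 8 alternatives and Ppp1r15a in 4. In Tg against WT ligament they differed by 0.68 and 0.28.

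Atf4 itself was at 6.72 in transfected tissue, 6.12 in stem cells, 6.66 in Tg ligament and 6.61 in WT ligament. The level of its mRNA differed by 0.59 between transfected tissue and stem cells, or by 1.65 after quantile normalization, and by 0.05 between Tg and WT ligament. A second Atf4 probe differed by 0.77 and -0.96. ATF4 is controlled mainly through translation, which the arrays do not measure.

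Atf5, a related stress factor, was at 5.54 in Tg ligament and 4.58 in WT ligament, a difference of 0.96 that lay just under 2-fold. Sesn2, a regulator of growth signalling, was at 1.30 in transfected tissue and 0.61 in stem cells, a difference of 0.69.

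All 14 ER chaperones had a higher level in Tg than in WT ligament, by 0.24 to 1.50 on the log2 scale, and 7 were past 2-fold (5 to 8 under the other ways of processing). The exception in sign was Dnajb11, at -0.51 with its probes averaged, the dimmer of which was not well above background on any array. Hspa5, the central ER chaperone BiP (probe at chr2:34631913-34631972 in mm9), was at 5.91 in transfected tissue and 5.67 in stem cells, and at 5.30 in Tg ligament and 3.85 in WT ligament. It was 2.72-fold higher in Tg than in WT ligament and 1.18-fold higher in transfected tissue than in stem cells. WT ligament was the array that stood apart, and Tg ligament lay nearer to the arrays of cell origin.

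The same placing was seen for Sdf2l1, a partner of BiP, at 1.74 in transfected tissue, 1.46 in stem cells, 0.65 in Tg ligament and -0.84 in WT ligament. It was 2.82-fold higher in Tg than in WT ligament, the largest of the chaperone differences measured on both arrays (Hyou1 gives only a bound). Manf, a secreted ER stress protein, was at 1.03 in Tg ligament and -0.22 in WT ligament, 2.38-fold apart. Pdia4, a disulphide isomerase, was at -0.97 in Tg ligament and -2.18 in WT ligament, 2.30-fold apart.

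Hsp90b1, the chaperone GRP94, was 2.14-fold higher in Tg than in WT ligament, whose level was 3.11. Dnajc3, a co-chaperone of BiP, was at 0.80 in Tg ligament and -0.27 in WT ligament, 2.10-fold apart. Among these 7, the log2 difference fell below the 2-fold line only under normexp background correction, which gave 0.91 for Dnajc3 and 0.61 for Pdia4.

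Creld2, an ER stress-induced disulphide isomerase-like protein, has 10 spots on each array and so shows the spot error directly. It was at 4.21 ± 0.036 (SD, 8 spots kept) in transfected tissue and 4.04 ± 0.043 (9 spots) in stem cells, and at 2.31 ± 0.029 (9 spots) in Tg ligament and 0.93 ± 0.045 (9 spots) in WT ligament. The spots of Tg and WT ligament did not overlap, and the difference was 2.59-fold. Spots of one array share a sample and are not replicates of a group.

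**Figure D4:**
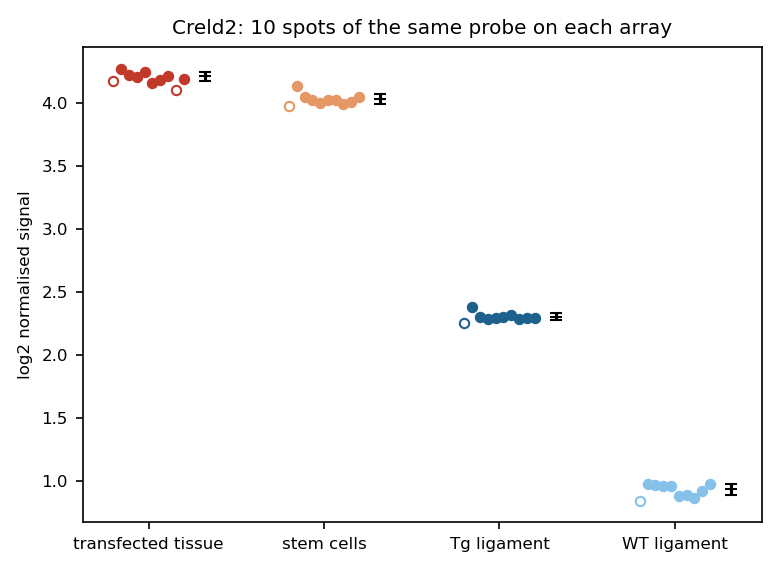
Log2 normalised signal (vertical axis) of the 10 Creld2 spots on each array, with outlier spots of the scanner software as open circles, and the mean and SD of the kept spots in black. Transfected tissue and stem cells lie near 4, Tg ligament at 2.31 and WT ligament at 0.93, with SDs of 0.029 to 0.045.

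The other 7 chaperones were under 2-fold in Tg against WT ligament. They were Canx at 0.85, Pdia6 at 0.76, Dnajb9 at 0.69, Calr at 0.55, Pdia3 at 0.50 and Dnajb11 at 0.24, with Hyou1 at 0.43 or more because it was not well above background in WT ligament. Dnajb9 has another probe, which differed by 1.91. Calnexin (Canx) and calreticulin (Calr) bind glycoproteins, and Pdia3 is the isomerase that works with them.

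Between transfected tissue and stem cells, 2 chaperones were past 2-fold. Dnajb9, a BiP co-chaperone induced through XBP1, was at 1.64 in transfected tissue, 0.23 in stem cells, 2.20 in Tg ligament and 1.52 in WT ligament. It was 2.66-fold higher in transfected tissue than in stem cells and the only chaperone lowest in stem cells. Calr was at 4.94 in transfected tissue, 3.59 in stem cells, 3.35 in Tg ligament and 2.80 in WT ligament, and was 2.54-fold higher in transfected tissue than in stem cells.

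The other 12 chaperones lay between -0.55 and 0.91 in that comparison. Hsp90b1, Pdia3 and Pdia6 had negative differences, of -0.10, -0.20 and -0.55, and the sign of each turned under at least 1 other scaling. Pdia6 has a second probe, which differed by 0.34. The number of chaperones past 2-fold was 2 to 4 over the 8 other ways of processing.

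Of the ER-associated degradation genes, Edem1, which hands misfolded glycoproteins to degradation, was at 1.40 in transfected tissue, 0.03 in stem cells, -1.83 in Tg ligament and -1.56 in WT ligament. It was 2.58-fold higher in transfected tissue than in stem cells and differed by -0.28 between Tg and WT ligament. Herpud1, a scaffold of the degradation complex, was at 3.19 in transfected tissue, 2.28 in stem cells, 4.34 in Tg ligament and 3.96 in WT ligament. It was 3.19-fold higher in WT ligament than in stem cells, where 9 of 14 chaperones were lower.

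Sel1l, the adaptor of the ubiquitin ligase, differed by 0.90 between transfected tissue and stem cells and by -0.03 between Tg and WT ligament, and the sign of the ligament difference turned with the scaling. Syvn1, the ligase HRD1, differed by 0.43 and 0.51. None of the 4 degradation genes passed 2-fold in Tg against WT ligament. Over all genes 6.29% were higher and 7.02% lower there, so nothing is read from this.

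Among the ATF4 amino acid genes, Slc7a11, the cystine transporter xCT, was well above background only in the transfected tissue. Its level there was -2.94, against -6.11 in stem cells, -6.21 in Tg ligament and -5.73 in WT ligament, none of which was well above background. It was at least 7.23-fold higher in transfected tissue than in stem cells, measured against the lowest signal that counts as well above background on the stem cell array. The log2 bound of 2.85 was 1.18 with normexp background correction. By the probes used, Slc7a11 was the only amino acid gene past 2-fold in that comparison. A second Psph probe was also past it, at 1.02. The number past 2-fold was 3 after quantile normalization, and 2 both with centring on probes detected on all arrays and in the deposited table. It was 0 with only genes well above background on both arrays.

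Asns, asparagine synthetase (probe at chr6:7625171-7625228 in mm9), was at 5.03 in transfected tissue and 5.25 in stem cells, and at 1.44 in Tg ligament and 0.86 in WT ligament. It differed by -0.22 between transfected tissue and stem cells, a sign that turned under other scalings, and by 0.58 between Tg and WT ligament. It was 17.9-fold higher in transfected tissue than in WT ligament. Both arrays of cell origin stood far above both ligaments.

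The serine synthesis genes differed among themselves. Phgdh, the first enzyme, was at 4.63 in transfected tissue, 4.13 in stem cells, 0.37 in Tg ligament and 0.34 in WT ligament. Psat1, the second, was at 3.85 in transfected tissue, 4.66 in stem cells, 0.66 in Tg ligament and -0.18 in WT ligament. Psat1 was the gene with the lowest difference between transfected tissue and stem cells, -0.81, and was 0.85 higher in Tg than in WT ligament.

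Phgdh and Psat1 were far lower in both ligaments than in both arrays of cell origin, whereas Psph, the last enzyme of serine synthesis, was 0.57 lower on the log2 scale in WT ligament than in stem cells. Psph differed by 0.87 between transfected tissue and stem cells and by -0.31 between Tg and WT ligament. Its second probe differed by 1.02 and -0.65. Shmt2, which passes the carbon of serine on in mitochondria, differed by 0.75 and -0.03. Slc3a2, the heavy chain shared by Slc7a5 and Slc7a11, differed by 0.19 and 0.73.

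Slc7a5, the leucine transporter LAT1, was at 0.86 in transfected tissue and 0.46 in stem cells, and by this probe was not well above background in Tg ligament (-3.66) or WT ligament (-3.72). For this probe the bound was at least 19.4-fold in transfected tissue over WT ligament. A second Slc7a5 probe was well above background on all 4 arrays and differed by only -0.20 there, so that the ligament level of this gene is uncertain.

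Setting the gene A comparisons side by side, 17 of the 38 genes were higher at 2-fold in either and 2 in both, which is 11.8% of the 17. Over all genes 2886 were higher in either and 116 in both, which is 4.02%. Of the 9 chaperones higher in either, 2 were so in transfected tissue, 7 in Tg ligament and none in both, so that with the low share over all genes nothing is read from their lack of overlap. Across the 36 genes compared in both, Pearson's r between the differences was 0.03, as a description of these arrays, and it was 0.06 across 14461 genes. Genes are not independent replicates.

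**Figure D5:**
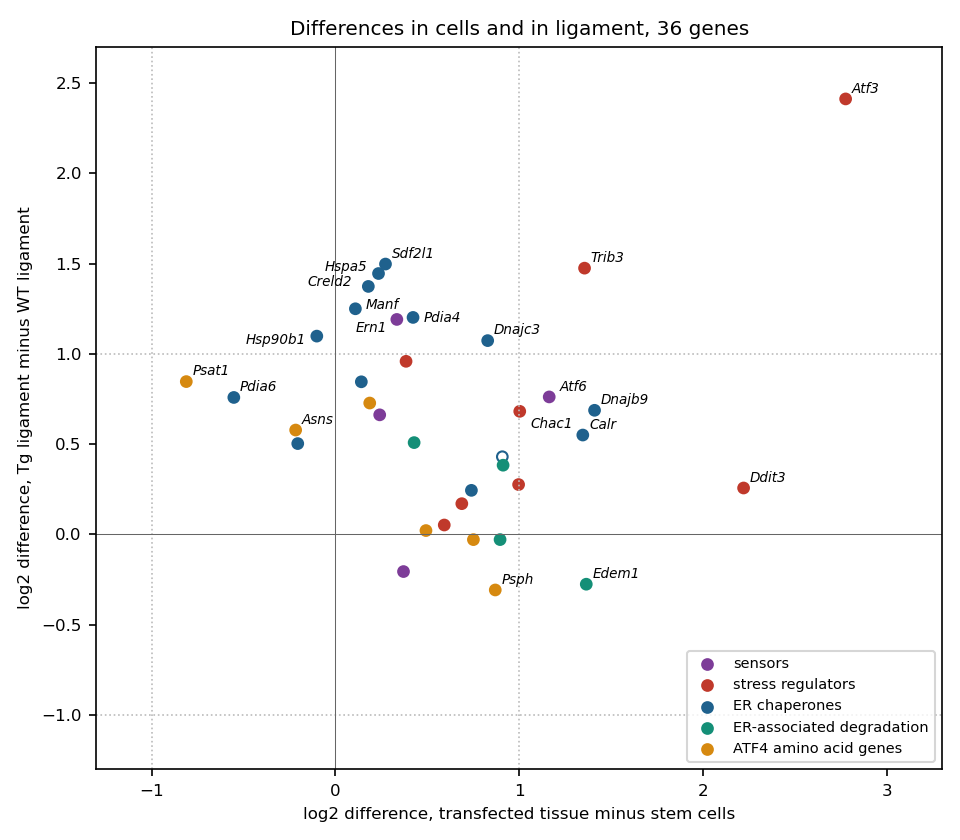
Log2 difference in transfected tissue minus stem cells (horizontal axis) against Tg minus WT ligament (vertical axis) for the 36 genes compared in both, coloured by role, with the open point a bound (Hyou1) and dotted lines at 2-fold. Atf3 and Trib3 are in the upper right corner, the 7 chaperones past 2-fold in ligament lie between -0.10 and 0.83 in cells, and Ddit3 lies to the right near 0 in ligament.

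Read with the promoter windows, 4 of the 7 chaperones with an ERSE match were higher at 2-fold in Tg than in WT ligament, and 2 of the 5 chaperones without a match. Over all genes, 5 of 16 with an ERSE match were higher there, and 6.4% of 9417 without. In cells, 1 of 7 chaperones with an ERSE match and 1 of 5 without were higher in transfected tissue than in stem cells. Their median log2 differences were 0.18 and 0.42. With so few chaperones, no division by ERSE match is read from either comparison. Between transfected tissue and stem cells, 4 of the 6 genes with a CARE match were higher (Atf3, Trib3, Chac1 and Slc7a11), and 4 of 28 without. Over all genes the shares were 17.1% of 299 with a CARE match and 10.6% of 9697 without. In Tg against WT ligament, 2 of 5 genes with a CARE match and 7 of 28 without were higher, and over all genes 29 of 264 and 579 of 9169. The 16 genes with an ERSE match include the 7 chaperones, and 4 of the 5 higher ones are these chaperones. The count over all genes is therefore not separate from the chaperone count. These groupings were made after the values were known.

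Other genes of the same pathways were listed apart from the 38. Over all genes, 11.1% were higher and 13.0% lower in transfected tissue than in stem cells. In Tg against WT ligament 6.29% were higher and 7.02% lower. List counts below that lie near these shares are not read as results about the list. Of 35 further ER folding and translocation genes, 3 were higher and 4 lower in transfected tissue than in stem cells (median -0.32). The higher ones were the oxidases Ero1l (2.24) and Ero1lb (1.22) and the prolyl isomerase Fkbp11 (1.22), and the lowest was Sec61g, a subunit of the translocation channel (-1.42). Between Tg and WT ligament 4 of 33 were higher and 0 lower (median 0.28), namely Sec24d, a coat protein needed for collagen export (1.35), Fkbp14 (1.25), the glycoprotein folding sensor Uggt1 (1.04) and Fkbp7 (1.01).

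Of 17 further amino acid and one-carbon genes, 7 were higher and 2 lower in transfected tissue than in stem cells (median 0.77). The largest were Cth, which makes cysteine (2.68), and the glycine transporter Slc6a9 (2.36), while Shmt1 (-1.53) and Mthfd1l (-1.44) were lower. Between Tg and WT ligament 1 of 15 was higher, the mitochondrial enzyme Mthfd2 (1.62), and 2 were lower (median -0.43). Of the 12 tRNA synthetases, 0 of 12 and 0 of 11 passed 2-fold in these comparisons, and nothing is read from such small sets.

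Further ER-associated degradation genes had 4 of 11 higher in transfected tissue, led by Wfs1 (2.11), Erlec1 (1.80) and Ubxn4 (1.80), and 1 of 10 in Tg ligament, Derl3, at 2.20 or more. Among other stress regulators, Nupr1 (1.70) was higher and Creb3l1, a collagen-secretion factor (-1.17), lower in transfected tissue, in a list with 3 of 22 higher and 2 lower. In Tg ligament 2 of 17 were higher, Creb3l2 (1.27 or more) and Ddit4 (1.04). Ddit4 was lower in transfected tissue (-1.04). Of 12 cytosolic heat shock genes, Hspa1a (1.41) and Bag3 (1.88) were higher in transfected tissue, and Hspa1a (1.79 or more) in Tg ligament.

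Secreted cargo genes and cell type markers were also listed. Of 10 collagen genes, 0 were higher and 3 lower in transfected tissue than in stem cells, and 1 of 10 was higher in Tg than in WT ligament (Col1a2, 1.02). The collagen medians were -0.23 and -0.09, against -0.07 and -0.03 for all genes, so no difference in secreted cargo is read. All 10 cell division markers were lower in transfected tissue than in stem cells (median -3.23), and their summed level was 15.8 in transfected tissue and 159 in stem cells, in multiples of the 75th percentile. Adipocyte markers were higher in 5 of 6 (median 3.40), with summed levels of 7.28 in transfected tissue and 4.48 in stem cells. Of these 6 differences 4 were bounds, because only 2 adipocyte markers were well above background in stem cells. Osteoblast markers were higher in 2 of 4 (median 1.94, 1 a bound), with 1.05 in transfected tissue and 0.257 in stem cells. The cell division markers were lower in 5 of 10 in Tg than in WT ligament (median -1.01), with 9.33 in Tg and 15.6 in WT ligament. In Tg against WT ligament, 10 of 10 neutrophil markers were lower, with summed levels of 429 in Tg and 1212 in WT ligament. Of 8 erythroid markers, 7 were lower, with 276 in Tg and 1009 in WT ligament.

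In the other direction, 8 of 9 epidermis markers were higher in Tg than in WT ligament, with summed levels of 204 in Tg and 38.8 in WT ligament. So were 4 of 6 osteoblast markers, with 187 in Tg and 47.0 in WT ligament, and 7 of 9 ligament and tendon markers, with 44.6 in Tg and 12.9 in WT ligament. Plasma and B cell markers, which mark cells rich in ER, were lower in 4 of 8 and higher in 1 of 8, with summed levels of 3.25 in Tg and 7.65 in WT ligament. Skeletal muscle markers summed to 6509 in Tg and 7664 in WT ligament, against 0.741 in transfected tissue and 2.08 in stem cells. The part of these marker levels in the differences of the chaperones and stress regulators was not tested.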

How the data were processed

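The authors deposited 1 scanner file per sample, which holds spot intensity as background-subtracted processed signal, with no normalization between arrays, made by Feature Extraction 10.7.1.1 per the file headers (9.5.1.1 per the submitters' processing notes). Their deposited value table holds linear intensity whose 4 columns have the same median (49.7). Scale and direction were checked against the scanner files, and the normalization method is not given in the sources used here. The header build is mm9.

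Control spots and 155 to 281 outlier spots per array were dropped. Each log2 signal had log2 of its array's 75th percentile subtracted, spots of a probe were averaged, and a gene took its brightest probe. A gene was compared when well above background on at least 1 array. If the dimmer array missed that mark, a bound was computed against its own signal or the array's lowest signal with that mark, whichever was higher. Bounds under 1-fold give no fold. The 38 genes have 49 probes. The scripts (Python 3.11.15, limma 3.58.1 in R 4.3.3) recovered simulated differences. These were planted in copies of the same array, in genes above its 75th percentile. Bounds, dim genes and arrays of unlike makeup were not simulated.

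The genes, roles and lists were chosen with earlier results of these data known. All 38 are named. The genes named from other lists are examples of those past 2-fold, and not every such gene is named. There were 8 alternatives. Precision is limited by the number of arrays.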

Additional observations from a re-analysis of the deposited data

Results flagged for a closer look

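10 of the 38 genes had differences of opposite sign in the gene A comparisons, and for 3 of them both differences were more than 2 times the spot noise of that comparison. The difference between the comparisons was not tested. Pdia6 differed by -0.55 in transfected tissue against stem cells and by 0.76 in Tg against WT ligament, -1.31 between the comparisons, and its second probe had 0.34 and 0.32. The sign of its first difference turned under another scaling. Psat1 differed by -0.81 and 0.85, -1.66 between the comparisons, and its second probe had -0.90 and a bound of 0.11 or more. Psph differed by 0.87 and -0.31, 1.18 between the comparisons, and its second probe had 1.02 and -0.65.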

How the results depend on the processing

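Over 8 alternatives and 16 counts and medians, 100 of 128 values stayed within 1.5 times the count or within spot noise of the median, 28 moved and 0 changed direction. Leaving out a replicate was not possible with 1 array per group. No paired analysis was possible because each group has 1 array and the labels carry no replicate numbers.

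In transfected tissue against stem cells the number of the 38 genes higher was 17 after quantile normalization, 14 with centring on probes detected on all arrays and 14 in the deposited table. The chaperone median was 0.61 after quantile normalization and 0.52 in the deposited table, and the amino acid median 0.83 and 0.73. Between Tg and WT ligament the amino acid median was 0.043 with no filter or bound and 0.13 with the mean of all probes.

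In WT ligament against stem cells 5 genes were higher with the mean of all probes. The chaperone median was -2.36 after quantile normalization, -2.33 in the deposited table and -2.31 with only genes above background on both arrays. The amino acid median was -3.23 with normexp, -3.46 with genes above background on both arrays, -3.46 with no filter and -3.13 with the mean of probes.

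In transfected tissue against WT ligament 1 gene was lower with normexp and 1 with the mean of probes. The chaperone median was 2.97 (quantile), 2.37 (centring), 2.80 (deposited table) and 2.35 (no filter), and the amino acid median 3.45 (normexp), 4.26 (quantile), 3.82 (centring), 4.04 (deposited table) and 2.84 (mean of probes). The cause of these shifts was not tested.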
